A study of Arabidopsis thaliana with 16 samples.

Results

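PeBoW is the name given, after its parts, to a complex of pescadillo, BOP1 and WDR12, and in Arabidopsis thaliana the homologues are AT5G14520 (synonym PES), AT2G40360 and AT5G15550. The 3 genes were taken by identity, as the probe sets whose single gene in the platform's annotation is one of these loci. No measured value entered that rule, but the genes were chosen with earlier results of these data known. Their ranks among other probe sets are therefore not independent evidence. Each locus had 1 probe set, the group of short probes that reads 1 transcript on the array, so the members were 3 of 22746 probe sets, and all 3 were among the 9454 that passed the filter on dim values (log2 4 or more on 2 or more arrays).

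In yeast and mammals this complex binds the precursor of the large ribosomal subunit in the nucleolus. BOP1 joins pescadillo to WDR12, and cells that lose any member stall in the maturation of the large-subunit ribosomal RNA. Ribosome production is a main cost of growing tissue, and cytokinin and gibberellin are plant hormones that act on growth.

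Whole 6-day-old seedlings by their labels, all of the Columbia-0 background, were profiled on 16 Affymetrix ATH1 arrays in 8 groups of 2 biological replicates. The extraction notes speak of 5-day-old plants, which is the age at transfer to liquid medium. In 4 groups the seedlings carried 35S::ARR1ΔDDK-GR, a transgene under the constitutive 35S promoter. It encodes the cytokinin-response transcription factor ARR1 without its phosphate-receiving DDK domain, fused to a steroid receptor domain (GR) that keeps the protein out of the nucleus until dexamethasone (DEX) is given. All 4 groups of this line were in 10 μM paclobutrazol (PAC) for 18 h, which blocks gibberellin synthesis so that DELLA proteins, the repressors of gibberellin responses, accumulate. The groups were PAC alone, PAC with 5 μM DEX for 3 h, PAC with 50 μM gibberellin (GA3), which removes DELLA proteins, and PAC with GA3 and DEX. The other 4 groups were wild type, and they were untreated, given 5 μM DEX for 3 h, given PAC and then 5 μM of the cytokinin N6-benzyladenine (BA) for 3 h, or given PAC with GA3 and then BA. No wild type with PAC alone is used here, so comparisons with BA seedlings also differ in genotype, and DEX in wild type was given without PAC. The sources used here do not say how many plants made up a sample or how many lines were used. Nothing beyond the word biological ties replicates to separate cultures, so each p-value reflects the spread between the arrays at hand.

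Replicate arrays correlated at r = 0.987 to 0.993 over all probe sets, and array medians lay between 3.08 and 3.12. The treatments could be checked on type-A response regulators, direct cytokinin-response genes, of which RR16 and ARR15 were measured. Their summed level was 5.04 to 5.37 (log2) in the line in PAC, 9.99 to 10.0 after DEX, and 6.93 to 7.51 in wild type with PAC and BA. In wild type it was 4.49 to 4.67 untreated and 5.35 to 5.81 with DEX, where RR16 was called higher by 1.22 (limma, adjusted p = 0.0484). ARR15 was at 0.05 there, between means of 2.65 and 2.70. Both lie under the filter's floor of 4, so its response to DEX in wild type cannot be read. Of 7 genes known to be induced by DELLA proteins only XERICO was tested, at group means of 3.08 to 4.16. In the line its means were 3.69 in PAC, 3.09 with DEX, 3.09 with GA3 and 3.08 with both, under the filter's floor of 4. Its GA3 difference was −0.61 in the line without DEX (limma, adjusted p = 0.247) and −0.02 with DEX (adjusted p = 0.987). These arrays did not show the removal of DELLA proteins by a call, and readings this dim cannot decide it. None of 10 leaf photosynthesis markers and 3 of 10 root markers had a probe set with a single gene, so the tissue could not be checked on its markers. Arrays read the RNA of whole seedlings, and a larger number of cells making a transcript cannot be told apart from more of it per cell.

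AT2G40360, the BOP1 homologue, was measured at log2 values of 8.43 and 8.24 (replicates 1 and 2) in untreated wild type and at 8.51 and 8.19 in wild type with DEX. In the line it was at 8.11 and 7.92 in PAC, at 8.39 and 8.67 in PAC with GA3, at 9.75 and 9.60 in PAC with DEX, and at 9.88 and 9.79 in PAC with GA3 and DEX. In wild type with BA it was at 9.02 and 8.90 in PAC and at 9.22 and 8.65 in PAC with GA3. The 4 arrays of the induced line were above all 12 others, the 4 BA arrays spread from 8.65 to 9.22, and the line in PAC was the lowest group, with no array overlapping untreated wild type.

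The WDR12 homologue AT5G15550 was read at 5.33 and 5.14 in untreated wild type and at 5.32 and 5.16 in wild type with DEX. In the line its values were 5.15 and 4.85 in PAC, 5.36 and 5.41 in PAC with GA3, 6.65 and 6.41 in PAC with DEX, and 6.69 and 6.96 in PAC with GA3 and DEX. Wild type with BA gave 5.92 and 5.87 in PAC but 5.29 and 5.46 in PAC with GA3. Again the induced line stood above every other array. The BA arrays in PAC were the next highest, whereas of the BA arrays with GA3 replicate 1 lay within the range of untreated wild type and replicate 2 was 5.46, just above the line in PAC with GA3 (5.36 and 5.41).

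For AT5G14520, the pescadillo homologue, untreated wild type was at 7.80 and 7.82 and wild type with DEX at 7.81 and 7.77. The line gave 7.51 and 7.68 in PAC, 7.75 and 7.84 in PAC with GA3, 9.04 and 8.99 in PAC with DEX, and 9.18 and 9.26 in PAC with GA3 and DEX. The BA seedlings were at 8.47 and 7.81 in PAC and at 8.36 and 8.25 in PAC with GA3. The induced line was once more above the other 12 arrays, and the replicates of BA in PAC disagreed, with replicate 2 at the level of untreated wild type.

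**Figure D1:**
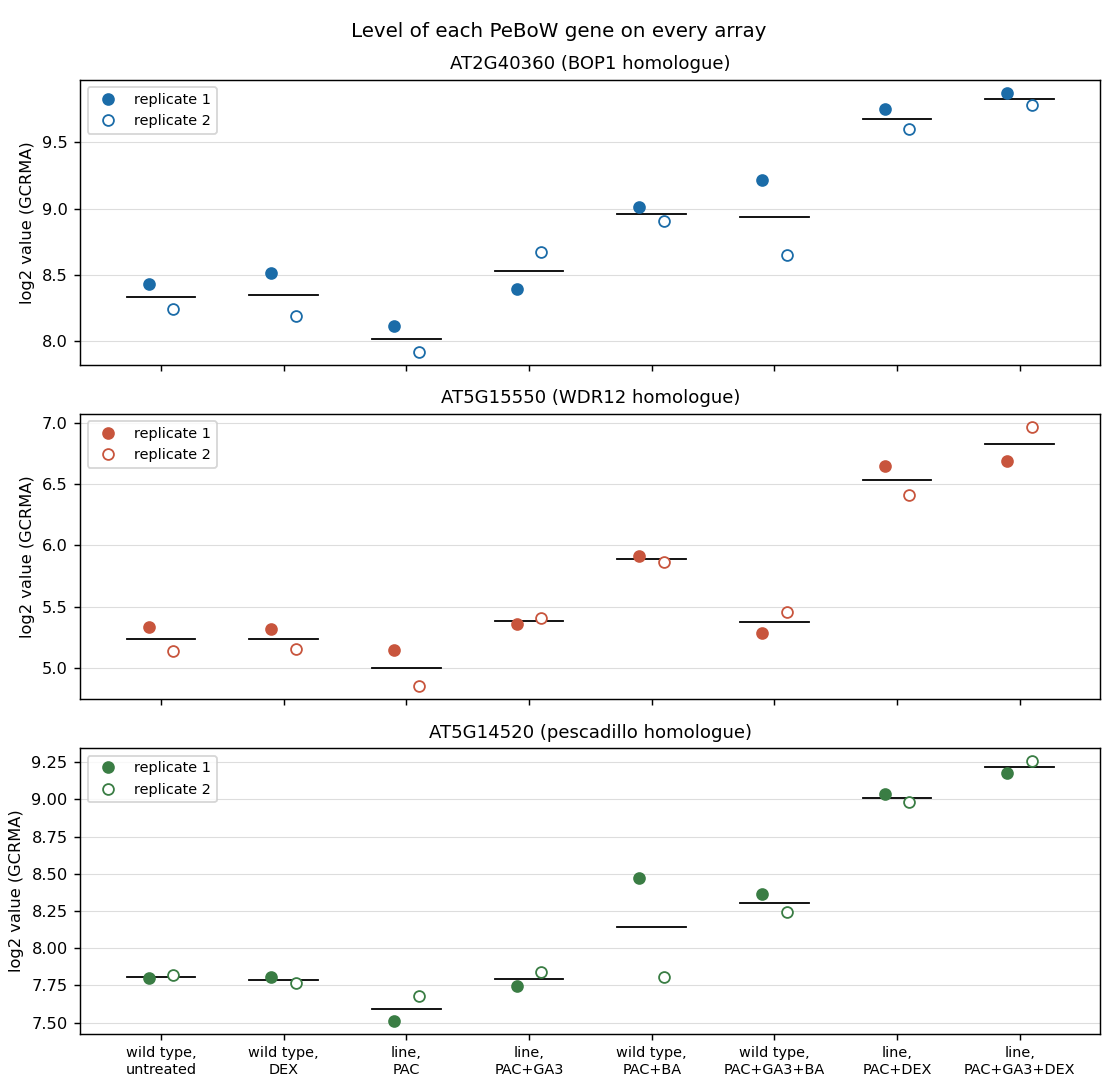
Log2 value (GCRMA) of each PeBoW gene on each of the 16 arrays, 2 per group, with black bars at the group means and a separate axis range for each gene. The 4 arrays of the line with DEX lie above the other 12 in every panel, and the replicates are farthest apart for AT5G14520 in wild type with PAC and BA (0.67).

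Levels of different probe sets cannot be set against each other, but the order of the groups can be compared. For all 3 genes the line in PAC had the lowest mean and the line in PAC with GA3 and DEX the highest, followed by the line in PAC with DEX. Neighbouring groups were set by these same means, and the intervals of the steps between them are not adjusted for that choice. They describe the order and do not test it. Between the highest means and the rest there was a step whose 95% interval excluded 0. It was 0.71 from BA in PAC to the line in PAC with DEX for AT2G40360 (0.29 to 1.14), 0.64 across the same groups for AT5G15550 (0.28 to 0.99), and 0.71 from BA with GA3 to the line in PAC with DEX for AT5G14520 (0.31 to 1.11). AT5G15550 alone had a further such step, of 0.51 (0.15 to 0.86), between the line in PAC with GA3 and wild type with BA in PAC. For all other neighbours in the 3 orders the 95% interval held 0. Among these, the arrays of the 2 induced groups did not overlap for any of the 3 genes. Nor did those of the 2 lowest groups for AT2G40360 and AT5G14520. The share of all probe sets whose arrays part in these ways, or with the induced line above all other arrays, is not given here. Such separations are therefore not read as a trait of these genes. The gap between replicates had a median over the groups of 0.19 for AT2G40360, 0.18 for AT5G15550 and 0.084 for AT5G14520.

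The first question was how the genes answered the release of ARR1 into the nucleus, with DELLA proteins accumulated or removed. DEX raised all 3 in the line in PAC, AT2G40360 by 1.66 ± 0.20 (SE; 3.16-fold), AT5G15550 by 1.53 ± 0.16 (2.89-fold) and AT5G14520 by 1.42 ± 0.19 (2.67-fold) on the log2 scale. In the linear model fitted with limma over all probe sets tested, their adjusted p-values were 0.000222, 0.000127 and 0.000407, and 9.12% of all probe sets were called higher in this comparison (adjusted p under 0.05). Ranked by the size of the rise they were at positions 70, 102 and 138 of 9454. In PAC with GA3 the rises were 1.30 ± 0.20 for AT2G40360, 1.44 ± 0.16 for AT5G15550 and 1.42 ± 0.19 for AT5G14520 (adjusted p = 0.000859, 0.00016 and 0.000319), with 10.4% of all probe sets called higher.

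The rise in PAC was compared with that in PAC with GA3 as a difference of differences. It was 0.36 (95% interval −0.24 to 0.96) for AT2G40360, 0.08 (−0.42 to 0.59) for AT5G15550 and −0.01 (−0.57 to 0.56) for AT5G14520. None of the 3 was called by limma (0 with an unadjusted p under 0.05), and 0% of all probe sets were called, 188 of them having an unadjusted p under 0.05. The intervals leave room for a response of AT2G40360 that is larger in PAC by up to 0.96, and for differences from −0.42 to 0.59 in AT5G15550 and from −0.57 to 0.56 in AT5G14520.

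DEX in wild type gave no call for these genes. The differences were 0.02 (−0.41 to 0.44) for AT2G40360, 0.00 (−0.35 to 0.36) for AT5G15550 and −0.02 (−0.42 to 0.38) for AT5G14520, and 0 of 3 had an unadjusted p under 0.05, while 0.74% of all probe sets were called in either direction. Once the wild type values were subtracted, the rise in the PAC-treated line was 1.64 ± 0.28, 1.53 ± 0.23 and 1.44 ± 0.26 in the same order (adjusted p = 0.00954, 0.00653 and 0.0135), and 2.8% of all probe sets were called higher. With GA3 the net responses were 1.28 ± 0.28, 1.44 ± 0.23 and 1.44 ± 0.26 (adjusted p = 0.0231, 0.00689 and 0.0122), against 3.72% called higher. In PAC the net calls of AT2G40360 and AT5G14520 were lost without untreated wild type replicate 1 (1.55 and 1.45) or DEX wild type replicate 2 (1.48 and 1.42). With GA3 the same 2 genes lost their calls without those arrays (1.19 and 1.45, 1.12 and 1.42) and without replicate 2 of the line in PAC with GA3 and DEX (1.33 and 1.41). AT2G40360 also lost it without replicate 1 of the line in PAC with GA3 (1.14) or untreated replicate 2 (1.37), and AT5G15550 kept its calls throughout.

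**Figure D2:**
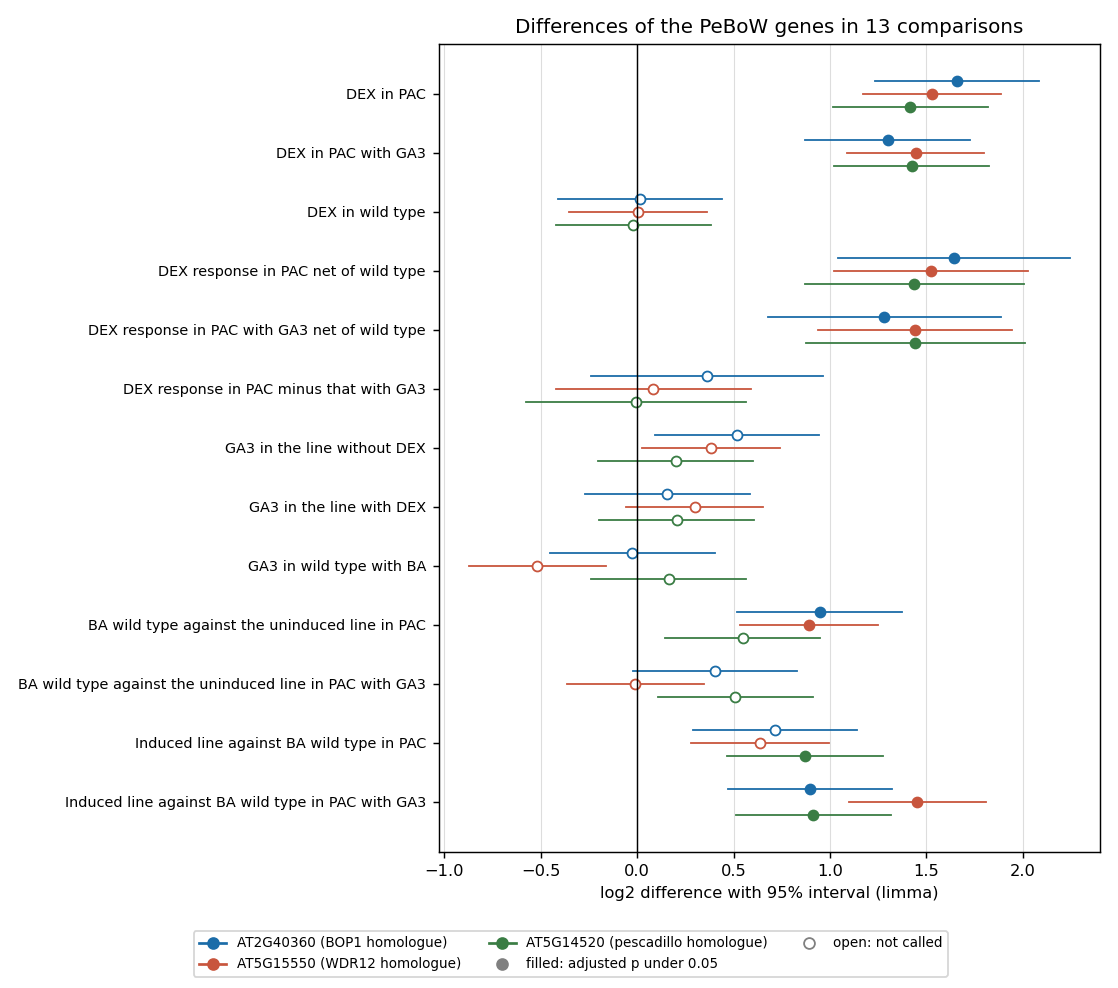
Log2 differences of the PeBoW genes with 95% intervals from limma (horizontal axis) in 13 comparisons (vertical axis), filled where the adjusted p was under 0.05. The 6 points for DEX in the line lie between 1.30 and 1.66, the 3 for DEX in wild type between −0.02 and 0.02, and AT5G15550 parts from the other genes in the rows for GA3 in wild type with BA (−0.52) and for the induced line against BA with GA3 (1.45).

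GA3 was then compared with its absence in 3 backgrounds. In the line without DEX the genes were 0.52 (0.09 to 0.94) higher for AT2G40360, 0.38 (0.03 to 0.74) for AT5G15550 and 0.20 (−0.20 to 0.60) for AT5G14520. By limma 0 of 3 were called (adjusted p = 0.235, 0.288 and 0.667), although unadjusted p-values under 0.05 numbered 2, and only 0.116% of all probe sets were called in either direction. For each gene both arrays with GA3 were above both arrays without it, by margins that were small for AT5G14520. The share of all probe sets with such a separation is not given here. With DEX present the differences were 0.16 (−0.27 to 0.58), 0.30 (−0.06 to 0.65) and 0.21 (−0.20 to 0.61), 0 of 3 had an unadjusted p under 0.05, and 0% of all probe sets were called, with 927 at an unadjusted p under 0.05.

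In wild type given BA, GA3 left AT2G40360 at a difference of −0.02 (−0.45 to 0.40) and AT5G14520 at 0.16 (−0.24 to 0.56). For AT5G15550 the difference was −0.52 (−0.87 to −0.16), from 5.92 and 5.87 without GA3 to 5.29 and 5.46 with it. This was not called by limma (adjusted p = 0.42, with 1 of 3 genes under 0.05 before adjustment), in a comparison where 0.0317% of all probe sets were called. All 28 other probe sets for ribosome biogenesis genes were above AT5G15550, with a median of 0.04 and 15 of them positive. The lowest of the 28 were AT5G08180, also at −0.52, AT2G44860 at −0.46 and AT3G22660 at −0.43, none of them called.

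BA seedlings in PAC were set against the uninduced line in PAC, a comparison that shares its control arrays with that of DEX in PAC and in which hormone and genotype change together. AT2G40360 was 0.95 ± 0.20 and AT5G15550 0.89 ± 0.16 higher in the BA seedlings (adjusted p = 0.0267 and 0.0153), and 1.31% of all probe sets were called higher. AT5G14520 was at 0.55 ± 0.19 (0.14 to 0.95; adjusted p = 0.144) and not called. These calls turned on single arrays. Both called genes lost their call without replicate 2 of the line in PAC (0.85 and 0.74) or without BA replicate 2 (1.00 and 0.92), and AT2G40360 also without BA replicate 1 (0.89). AT5G14520 gained a call without BA replicate 2, at 0.88 (adjusted p = 0.0316, against 0.144 with all arrays).

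In PAC with GA3 the same comparison gave 0.40 (−0.02 to 0.83) for AT2G40360, −0.01 (−0.36 to 0.35) for AT5G15550 and 0.51 (0.11 to 0.91) for AT5G14520. None was called by limma (1 had an unadjusted p under 0.05), whereas 3.82% of all probe sets were called in either direction. The BA difference in PAC minus that with GA3, a comparison added after the values had been seen, was 0.54 (−0.06 to 1.15) for AT2G40360, 0.90 (0.40 to 1.40) for AT5G15550 and 0.04 (−0.53 to 0.61) for AT5G14520. For AT5G15550 the adjusted p was 0.303, and 0% of all probe sets were called, with 1229 at an unadjusted p under 0.05.

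The induced line was higher than BA seedlings in each medium. In PAC the difference was 0.71 (0.29 to 1.14) for AT2G40360, 0.64 (0.28 to 0.99) for AT5G15550 and 0.87 (0.47 to 1.27) for AT5G14520. Of these only AT5G14520 was called (adjusted p = 0.0261, against 0.0643 and 0.0521), with 2.02% of all probe sets called higher. Its call was lost without either array of the line in PAC with DEX (0.84 and 0.90) and without BA replicate 2 (0.54). With GA3 all 3 were called, AT2G40360 at 0.89 ± 0.20, AT5G15550 at 1.45 ± 0.16 and AT5G14520 at 0.91 ± 0.19 (adjusted p = 0.0122, 0.000532 and 0.00917), while 9% of all probe sets were called higher. AT2G40360 lost this call without either array of the line in PAC with GA3 and DEX (0.85 and 0.94) and without BA with GA3 replicate 2 (0.61), AT5G14520 without replicate 2 of either group (0.88 and 0.85), and AT5G15550 under none of these.

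Relative to untreated wild type, wild type with PAC and BA had AT5G15550 0.66 ± 0.16 higher (adjusted p = 0.0293), AT2G40360 at 0.62 ± 0.20 (adjusted p = 0.0671) and AT5G14520 at 0.33 ± 0.19 (adjusted p = 0.274). Of all probe sets 3.61% were called higher, and the call of AT5G15550 was lost without any 1 of the 4 arrays (0.56 to 0.76). With PAC, GA3 and BA the differences were 0.60 (0.17 to 1.03) for AT2G40360, 0.14 (−0.22 to 0.50) for AT5G15550 and 0.50 (0.10 to 0.90) for AT5G14520. None of these was called by limma (2 had an unadjusted p under 0.05), and 6.84% of all probe sets were called in either direction. Without BA with GA3 replicate 2, AT2G40360 was called at 0.88 (adjusted p = 0.0365).

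The uninduced line in PAC lay below untreated wild type by −0.32 (−0.75 to 0.10) for AT2G40360, −0.23 (−0.59 to 0.12) for AT5G15550 and −0.21 (−0.61 to 0.19) for AT5G14520. With GA3 the differences were 0.20 (−0.23 to 0.62), 0.15 (−0.21 to 0.51) and −0.01 (−0.41 to 0.39). In both comparisons 0 of 3 genes had an unadjusted p under 0.05, and 0.159% and 0.328% of all probe sets were called in either direction.

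**Figure D3:**
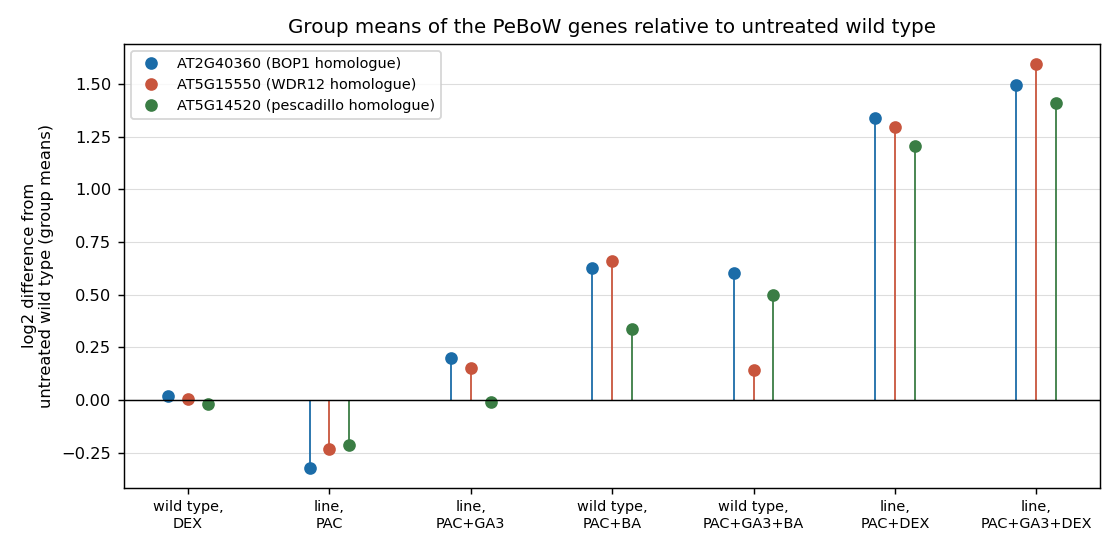
Group mean of each PeBoW gene minus its mean in untreated wild type (log2, vertical axis; 2 arrays per mean) in the other 7 groups. The genes are farthest apart in the BA groups, where AT5G14520 is at 0.33 in PAC beside 0.62 and 0.66, and AT5G15550 is at 0.14 with GA3 beside 0.60 and 0.50.

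The PeBoW genes were set beside 57 other genes of ribosome biogenesis, in lists drawn from general knowledge of yeast and plant homologues. Ribosome biogenesis had already been named in earlier results from these samples, so the lists are not independent evidence of direction. Of the 57 genes, 30 probe sets had a single gene and 28 of those (for 27 genes) were tested. For DEX in PAC 25 of the 28 were called higher and 0 lower, and all 28 differences were positive. Their median was 1.06 (0.59 to 1.67) against −0.03 over all probe sets tested, of which 9.12% were called higher. With GA3 25 were called higher, with a median of 1.11 against −0.02 and 10.4% of all probe sets called higher. In wild type 0 of 28 were called by limma (median 0.03, 0 at an unadjusted p under 0.05). With 1 array left out, fewer of the 28 were called in PAC, and as many or fewer with GA3. The share of all probe sets called in those fits is not given here, so the fall is not read as a trait of these genes.

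By role, DEX in PAC was called higher for 16 of 17 probe sets for other large-subunit assembly factors and 5 of 7 for factors of the small-subunit processome. The calls also held 2 of 2 for H/ACA snoRNP proteins, which modify ribosomal RNA, and 2 of 2 for RNA polymerase I subunits, which transcribe it. Among the large-subunit factors RBL (REBELOTE) rose by 1.67 and AT3G15460 by 1.33 (adjusted p = 0.000169 and 0.00101). The probe sets of AT1G79150 disagreed, at 1.63 (called) and 0.67 (adjusted p = 0.455). YAO, of the small-subunit list, rose by 1.42, and PCN was at 0.59 without a call (adjusted p = 0.123). The polymerase subunits NRPA2 and NRPA1 rose by 1.51 and 0.88. NRPA1 had group means of 3.38 to 3.70 outside the induced line, under the filter's floor of 4, and 4.42 and 5.08 in it. AT4G26600, a large-subunit factor, had means of 3.03 to 4.14 outside it and 4.76 and 5.01 in it. The filter may have admitted such probe sets through the rise itself, so their calls add no independent support to the counts.

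Within this company the PeBoW genes were near the top for DEX in PAC, where 1 of the 28 other probe sets rose by more than AT2G40360, 2 by more than AT5G15550 and 5 by more than AT5G14520. With GA3 these counts were 8, 5 and 5. For BA in PAC, 1 was above AT2G40360, 1 above AT5G15550 and 8 above AT5G14520, and 2 of the 28 were called, AT3G03920 (0.76) and NRPA2 (1.00), with a median of 0.43 and 1.31% of all probe sets called higher. The calls among the 28 were lost without replicate 2 of the line in PAC or BA replicate 2, and their number rose without replicate 1 of the line in PAC. The share of all probe sets called in those fits is not given here. For BA with GA3, 22 were above AT5G15550, the median was 0.22 and 0 were called by limma (8 at an unadjusted p under 0.05).

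Against BA seedlings the induced line was higher for all 28 in PAC and for 27 with GA3 (medians 0.58 and 0.88). Of these, 3 and 18 were called, while 2.02% and 9% of all probe sets were called higher. With 1 array left out, fewer were called in PAC except without BA replicate 1, where more were. With GA3 fewer were called except without replicate 1 of the line in PAC with GA3 and DEX. The share of all probe sets called in those fits is not given here. Of the 28, 0 exceeded AT5G15550 in the comparison with GA3. The difference between the DEX responses in PAC and with GA3 had a median of −0.08 over the 28, and 0 were called by limma (0 at an unadjusted p under 0.05).

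**Figure D4:**
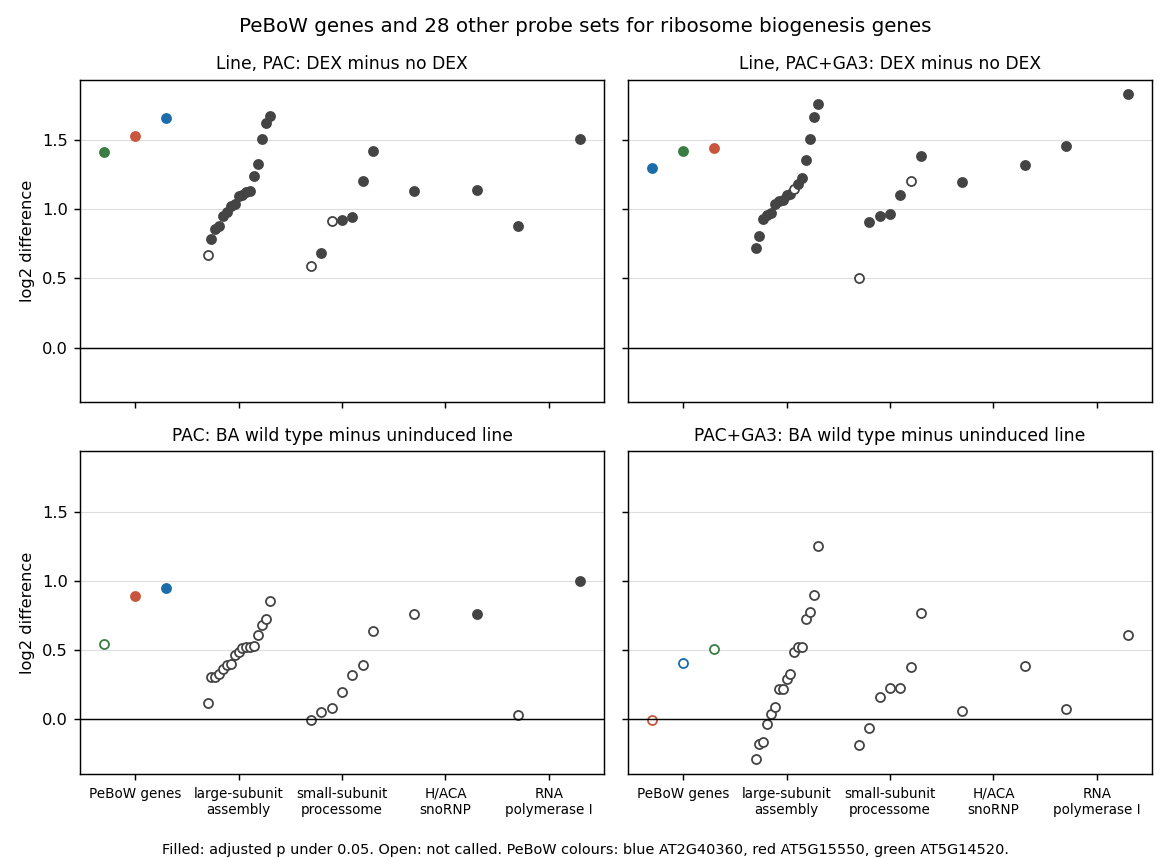
Log2 differences (vertical axis) of the PeBoW genes and of 28 other probe sets for ribosome biogenesis genes, grouped by role and placed from low to high within a role, in 4 comparisons. Nearly all points of the upper panels (DEX in the line) are filled, meaning called, and lie above 0.50, whereas 4 points in PAC and 0 in PAC with GA3 are called in the lower panels (BA wild type minus the uninduced line).

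Of 13 marker genes of dividing cells, 1 had a probe set with a single gene. That gene, PRL, a subunit of the replicative helicase, was higher with DEX in the line, as the PeBoW genes were. Its GA3 differences in the line were −0.14 without DEX and −0.19 with DEX, neither called, where the PeBoW genes were at 0.16 to 0.52. PRL was at 4.90 to 5.37 in the line in PAC and 5.97 to 6.50 after DEX (a rise of 1.11, adjusted p = 0.00464 by limma). With GA3 it was at 4.95 to 5.03 and 5.96 to 6.14, and on the 4 BA arrays at 5.38 to 5.66. The part of dividing cells in the PeBoW values was not tested.

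Over the 16 arrays, which share their normalization and of which 4 carry the DEX rise, the PeBoW genes followed each other with Pearson's r of 0.94 (AT2G40360 and AT5G15550), 0.95 (AT2G40360 and AT5G14520) and 0.92 (AT5G15550 and AT5G14520). Among the 9453 other probe sets, ordered by likeness, PeBoW partners ranked between 37 and 170. Over the 12 arrays without DEX in the line the values were 0.76, 0.80 and 0.54, the lowest being that of AT5G15550 and AT5G14520. Genes named for likeness came only from the 4912 tested probe sets with a single gene, so other probe sets may be more alike. The 5 named genes with the profile most like AT2G40360 were AT5G14050, AT3G18600, AT2G17670, AT5G06110 and AT1G71840 (r = 0.965 to 0.972). Those most like AT5G15550 were AT5G08180, AT3G15357, AT1G75670, AT4G25730 and AT3G18600 (0.966 to 0.977). For AT5G14520 they were AT3G06530, AT1G63660, AT3G59670, AT5G11240 and AT1G42440 (0.972 to 0.986). Over the 8 group means instead of the 16 arrays, 0, 3 and 2 of the 5 genes stayed among the most alike for AT2G40360, AT5G15550 and AT5G14520.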

How the data were processed

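The series holds 16 ATH1 arrays of whole seedlings, 2 per group, grouped by their labels. The deposited unit is the log2 expression value of a probe set, which the authors obtained with GCRMA according to the submitters' notes (background correction, normalization between arrays and summary over probes), in a version not stated. Of 22810 probe sets, 64 controls were left out. Locus and symbol came from the platform table, updated through NCBI identifiers, and 13436 probe sets had 1 gene with a locus. The gene tables give AT5G14520 the synonym PESCADILLO and the other members only a locus, so the homology of those is general knowledge.

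All 16 arrays entered 1 model of group means with no covariate (limma 3.58.1 under R 4.3.3; lmFit, contrasts.fit, eBayes), which had 8 residual and 4.66 prior degrees of freedom. Two-sided p-values received the Benjamini-Hochberg adjustment across all 9454 tested probe sets, and under 0.05 a probe set was called. There were 18 comparisons, and the fit was tested on simulated data. The number of arrays limits the precision, and for a difference of 2 groups 95% intervals reached 0.44 to either side at the median over probe sets.

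Named genes were the members, the 5 named genes most like each by Pearson's r over the arrays, and up to 4 genes of each list, those with the smallest adjusted p. PCN, AT2G44860, AT3G22660 and the second probe set of AT1G79150 were named after their values were seen. The members and lists were chosen with earlier results of these data known. Results were recomputed with quantile normalization, 75th-percentile centring, without the filter, with a floor of 6, a trended robust prior, the replicate number as a block, fits of the compared groups alone, each array left out, and a Z test of the kind the study used. Plots used Python 3.11.15 and matplotlib 3.10.9. Promoter motifs were planned and not run.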

Additional observations from a re-analysis of the deposited data

Results flagged for a closer look

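The response to DEX differed between the line and wild type for every PeBoW gene with all arrays in the fit, tested as the interaction of genotype and DEX in limma, and since only the line was in PAC the medium differed too. In PAC the line's response exceeded that of wild type by 1.64 for AT2G40360, 1.53 for AT5G15550 and 1.44 for AT5G14520 (adjusted p = 0.00954, 0.00653 and 0.0135). Both arrays of the line with DEX were above both arrays without it, a separation whose share over all probe sets is not given here. With GA3 the excess was 1.28, 1.44 and 1.44 (adjusted p = 0.0231, 0.00689 and 0.0122). The calls of AT2G40360 and AT5G14520, in PAC and with GA3, were lost when single arrays were left out, that of AT2G40360 with GA3 also without the filter on dim probe sets, and those of AT5G15550 under no setting run. With 2 arrays per group, no group was large enough to be examined for an array far from the others.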

How the results depend on the processing

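Of 696 values of the PeBoW genes under other settings, 647 kept their direction and their side of the threshold, 41 lost a call, 8 gained one and 0 called values changed sign. 38 uncalled values changed sign. DEX in the line, in PAC and with GA3, was called for all 3 genes under every setting run. Causes were not tested. Without the filter on dim probe sets, calls were lost by AT2G40360 for DEX with GA3 net of wild type (1.28) and for BA in PAC (0.95), and by AT5G14520 for the induced line against BA in PAC (0.87). A floor of 6 gave AT5G15550 a call in the last comparison (0.64). Under quantile normalization AT2G40360 lost the induced line against BA with GA3 (0.66) and gained PAC, GA3 and BA against untreated (0.80), and under 75th-percentile centring it gained PAC and BA against untreated (0.73). Fitted on the compared groups alone, BA in PAC lost AT2G40360 (0.95) and AT5G15550 (0.89), the induced line against BA lost AT5G14520 in PAC (0.87) and AT2G40360 with GA3 (0.89), and PAC and BA against untreated lost AT5G15550 (0.66). The Z test, which uses no replicate spread, did not call the induced line against BA with GA3 for AT2G40360 (Z ratio 1.35) and AT5G14520 (1.45), nor PAC and BA against untreated for AT5G15550 (1.48).

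With 1 array left out, results whose call changed spanned these values (log2). DEX net of wild type was 1.48 to 1.80 for AT2G40360 and 1.36 to 1.52 for AT5G14520 in PAC, and 1.12 to 1.44 and 1.40 to 1.49 with GA3. BA in PAC was 0.85 to 1.04 for AT2G40360, 0.74 to 1.04 for AT5G15550 and 0.21 to 0.88 for AT5G14520. The induced line against BA was 0.54 to 1.20 for AT5G14520 in PAC, and 0.61 to 1.18 for AT2G40360 and 0.85 to 0.97 for AT5G14520 with GA3. Against untreated wild type, AT5G15550 with PAC and BA was 0.56 to 0.76 and AT2G40360 with PAC, GA3 and BA 0.32 to 0.88.

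Replicate numbers mark no batch in the labels, so they were not taken as pairs. Deviations of same-numbered arrays correlated at −0.33 to 0.48 over 28 group pairs (median 0.21, over 0.1 in 21, under −0.1 in 2). With the replicate block, AT2G40360 and AT5G15550 gained calls for the induced line against BA in PAC (0.71 and 0.64) and AT2G40360 for PAC and BA against untreated (0.62), and no other PeBoW call changed.

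Counts over all probe sets moved by over 1.5 times without the filter, from 0 to 24 for the difference between the DEX responses, 436 to 280 and 485 to 301 for the responses net of wild type, 11 to 35, 0 to 69 and 3 to 51 for GA3 in the line without DEX, with DEX and in BA wild type, 647 to 404 for PAC, GA3 and BA against untreated, 15 to 60 for the uninduced line in PAC against untreated, and 0 to 30 for the difference between the BA comparisons. With the block most rose and none fell. Rises over 1.5 times were 11 to 19 and 0 to 1 for GA3 in the line without and with DEX, and 15 to 47 for the uninduced line in PAC. The Z test called 11 and 12 of the 28 other ribosome biogenesis probe sets for DEX in PAC and with GA3, against 25 and 25, and 9 and 7 for the induced line against BA in PAC and with GA3, against 3 and 18. Centring shifted the median of all probe sets by −0.12 for GA3 in the line without and with DEX, −0.13 for the induced line against BA with GA3, and −0.11 for the difference between the BA comparisons. It was 0.11, 0.10 and 0.12 for PAC and BA, PAC, GA3 and BA, and the uninduced line in PAC against untreated.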
